A study of Homo sapiens with 66 samples.

Results

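THP-1 cells, a human monocytic leukemia line, were compared 5 d after they had received a guide RNA (gRNA) against HNRNPC with cells that had received nontarget gRNA only. The comparison took every whole-cell library of day 5 that the labels put in these groups: 3 of hnRNPC-targeted cells and 3 of controls, which is 6 of the 48 libraries of study 1 and of the 66 libraries in the series. All cells of study 1 came from 1 STING-deficient clone with a Cas9 transgene, grown in medium without added IFN on this day. hnRNPC-targeted cells received the nontarget gRNA NTC1 together with the gRNA hnRNPC.2, control (CTRL) cells received NTC1 in both positions, and a further control group of 3 libraries received NTC1 with a gRNA against GFP. The cells were a nucleofected population, so a group could hold cells that were not edited. RNA from such a population cannot tell a smaller number of affected cells from a smaller change per cell. RNA was total RNA depleted of ribosomal RNA, and the deposited counts covered genes, introns, and editing-cluster–rich regions (ECRs), stretches of the genome with grouped A-to-I editing sites.

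HNRNPC encodes an abundant nuclear protein that binds runs of uridine in nascent RNA. At such runs, many of them in Alu repeats inserted antisense to a gene, it competes with the splicing factor U2AF and so keeps cryptic exons out of mRNA. Alu repeats that face each other can form double-stranded RNA, in which the deaminase ADAR changes adenosine to inosine, a base that is read as guanosine after reverse transcription. Double-stranded RNA that escapes these controls can be sensed by MDA5 and lead to expression of IFN-stimulated genes.

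The gRNA is shown first because it sets what the groups were. It matched the forward strand of chromosome 14 at chr14:21702284-21702303 (GRCh37), inside HNRNPC, which lies on the reverse strand. The matched bases lay in a coding exon of 24 of the gene's 26 annotated coding transcripts. The line below gives the gRNA, and the next line the genome around it (chr14:21702264-21702323, forward strand) with the 3-base motif that Cas9 needs next to the target in capitals.
hnRNPC.2: gagattcccaatgaatacac
HNRNPC locus: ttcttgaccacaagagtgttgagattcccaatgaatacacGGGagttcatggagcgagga
The genome held 2 exact matches with such a motif, and the other lay at chr2:190788111-190788130 in HNRNPCP2, a processed pseudogene of HNRNPC. NTC1 had 0 exact matches.

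HNRNPC mRNA had 811, 869, and 818 CPM (counts scaled to a library of 1e+06 counts) in the 3 CTRL libraries and 312, 323, and 315 CPM in the 3 hnRNPC libraries. The groups did not overlap, and the log2 fold change was −1.40 (standard error 0.0588, edgeR adjusted p = 1.87e-21). The GFP libraries had 795, 844, and 739 CPM. HNRNPCP2 had 2.82, 2.71, and 4.20 CPM in CTRL cells and 0.867, 1.19, and 1.44 CPM in hnRNPC-targeted cells (log2 fold change −1.48). The paper counted only uniquely mapping reads, so reads that fit both near-identical copies were left out. The value of HNRNPCP2 rests on the remaining reads and is uncertain.

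A gene, intron or ECR was called where its log2 fold change was at least 1 in absolute size at an adjusted p of at most 0.05. Of 57820 genes, 13193 had enough counts to be tested, and 525 were called higher (3.98%) and 493 lower (3.74%) in hnRNPC-targeted cells. Of 197626 introns, 21798 were tested, and 873 were called higher (4.0%) and 513 lower (2.35%). Of 2875 ECRs, 2528 were tested, and 126 were called higher (4.98%) and 109 lower (4.31%). The 3 hnRNPC libraries lay wholly above or wholly below the 3 CTRL libraries for 68.0% of all tested genes, 46.4% of introns, and 62.7% of ECRs. A lack of overlap was therefore common, and the text below names it only as a property of each feature. GFP cells differed from CTRL cells by 25 genes called higher (0.189%) and 3 called lower (0.0227%), by 1 intron called higher (0.00459%), and by 0 ECRs (0.0%). With the same test, 379 ECRs had an unadjusted p under 0.05 in that control comparison.

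Gene totals ranged from 125328747 to 149998927 counts in the CTRL libraries and from 135484351 to 150427487 in the hnRNPC libraries. Intron totals were 28905582 to 31314027 and 32871670 to 35109665, and ECR totals were 7786444 to 9050777 and 7401096 to 8328629. Of 9 tested markers of the monocytic line, 1 was called higher and 0 lower, and the summed level of all 10 markers was 1070 to 1210 CPM in CTRL and 1010 to 1150 CPM in hnRNPC libraries. CD14, the lipopolysaccharide coreceptor, was below the filter on low counts, at 0.0991 to 0.272 CPM in CTRL and 2.53 to 3.78 CPM in hnRNPC libraries. The 14 markers of lymphocytes, erythroid, epithelial, and stromal cells summed to 2.84 to 3.39 CPM in CTRL and 5.49 to 6.88 CPM in hnRNPC libraries. CD3E reached at most 0.00699 CPM and MS4A1 at most 0.0283 CPM in any of these 6 libraries. The part of these markers in the results was not tested.

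Some control libraries stood apart in particular genes. CTRL replicate 3 was high in integrated stress response genes, with 12.4 CPM of CHAC1 against 0.758 and 0.935 CPM in the other two. GFP replicate 3 was high in early response and growth-arrest genes, with 9.12 CPM of FOSB against 0.648 and 0.319 CPM, and 99.8 CPM of CDKN1A against 39.6 and 37.6 CPM. Against GFP cells, which shared the 3 hnRNPC libraries with the main comparison, 382 genes were called higher (2.9%) and 410 lower (3.11%).

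Among the genes with the largest increases, several were nearly silent in control cells. ANKDD1A, an ankyrin repeat and death domain protein, had 1.06, 0.871, and 1.05 CPM in CTRL cells and 12.2, 10.9, and 10.8 CPM in hnRNPC-targeted cells. The log2 fold change was 3.50 (standard error 0.199, edgeR adjusted p = 1.29e-17), and the GFP libraries, at 0.919 to 1.17 CPM, lay with the CTRL libraries. IL21R, the receptor for the T cell cytokine IL-21, had 1.38, 1.35, and 2.07 CPM in CTRL cells and 14.1, 12.6, and 15.5 CPM in hnRNPC-targeted cells (log2 fold change 3.13, edgeR adjusted p = 8.87e-17). All 3 hnRNPC libraries were close together and far above the controls.

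CYP1B1, a cytochrome P450 enzyme of steroid and xenobiotic metabolism, had the largest increase of the 10 protein-coding genes chosen for their size of increase. Its values were 2.32, 2.83, and 4.14 CPM in CTRL cells and 17.1, 18.5, and 83.6 CPM in hnRNPC-targeted cells. The groups did not overlap, but replicate 3 was far above the other two hnRNPC libraries, and the log2 fold change of 3.68 had a wide standard error (0.418, edgeR adjusted p = 1.20e-09). GFP cells had 4.48, 4.57, and 11.2 CPM, again with the highest value in replicate 3.

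CDKN1A, the p53 target that encodes the cell cycle inhibitor p21, had 29.4, 31.7, and 39.0 CPM in CTRL cells and 229, 188, and 217 CPM in hnRNPC-targeted cells. Every hnRNPC library lay above every CTRL and GFP library, and the log2 fold change was 2.66 against CTRL (standard error 0.207, edgeR adjusted p = 8.47e-14) and 1.84 against GFP cells. The other genes named for their size of increase rose by log2 fold changes of 2.499 to 3.04. They were LOXL4, a lysyl oxidase that cross-links collagen, IFITM10, F2RL3, a thrombin receptor, SYTL2, a Rab27 effector of vesicle transport, TLCD3B, and PCDH12, a protocadherin. Each of them was also called against GFP cells. The largest log2 fold change among all tested genes, 4.30, belonged to RN7SL396P, a copy of the 7SL RNA gene with many relatives. Only uniquely mapping reads were counted, so its value rests on part of its reads and is uncertain. RN7SL396P had 0.422, 0.340, and 0.483 CPM in CTRL cells and 2.93, 7.63, and 14.0 CPM in hnRNPC-targeted cells. It was named after its value was seen.

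**Figure D1:**
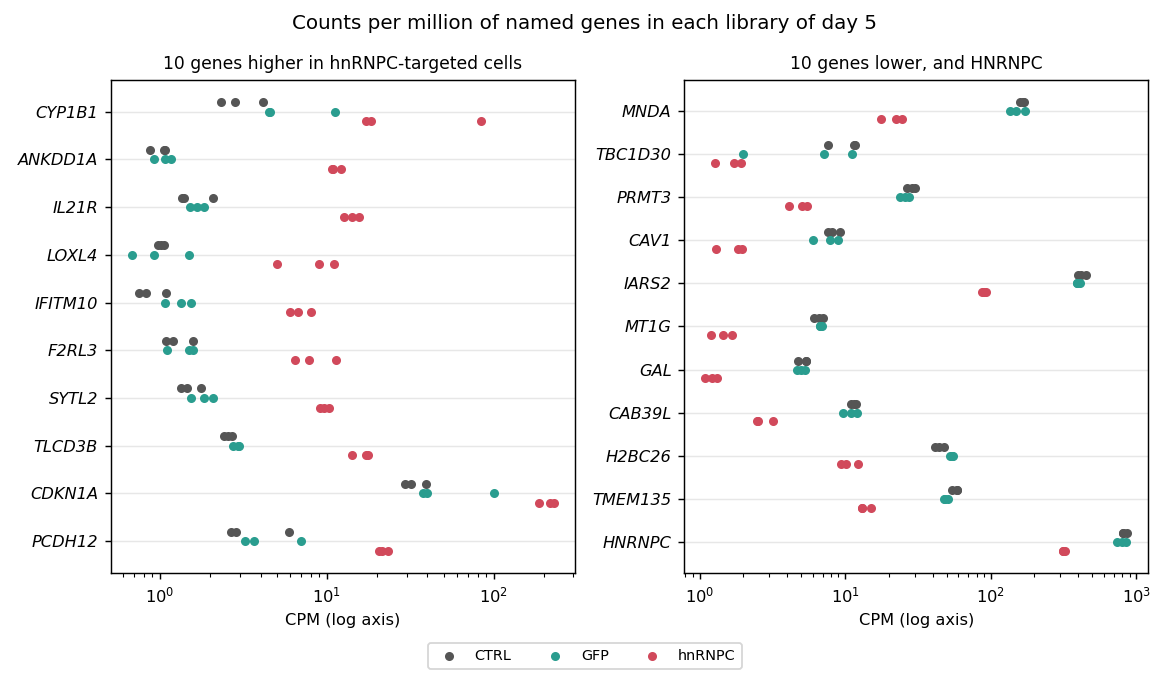
CPM on a log axis in each of 3 CTRL, 3 GFP, and 3 hnRNPC libraries of day 5, for the 10 genes with the largest increase (left) and the 10 with the largest decrease together with HNRNPC (right). In each row the hnRNPC points lie apart from the CTRL points, and a single hnRNPC library of CYP1B1 (83.6 CPM) and a single GFP library of TBC1D30 (2.00 CPM) lie away from their groups.

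The genes with the largest decreases included markers and enzymes that control cells expressed well. MNDA, the myeloid cell nuclear differentiation antigen, had 158, 167, and 169 CPM in CTRL cells and 17.6, 22.4, and 24.6 CPM in hnRNPC-targeted cells (log2 fold change −2.94, standard error 0.148, edgeR adjusted p = 3.52e-19). The 3 GFP libraries (150, 171, and 136 CPM) lay with the CTRL libraries, far above the hnRNPC libraries. IARS2, the mitochondrial isoleucyl-tRNA synthetase, had 399.9, 449.8, and 417 CPM in CTRL cells and 86.6, 89.8, and 92.6 CPM in hnRNPC-targeted cells (log2 fold change −2.24, edgeR adjusted p = 1.29e-26). PRMT3, an arginine methyltransferase of ribosomal protein S2, had 28.9, 30.2, and 26.6 CPM in CTRL cells and 4.13, 5.04, and 5.52 CPM in hnRNPC-targeted cells (log2 fold change −2.54, edgeR adjusted p = 5.50e-25). In both genes the 3 libraries of a group were close and the groups far apart. The other genes named for their size of decrease fell by 2.06 to 2.65 on the log2 scale. They were TBC1D30, CAV1, which encodes the caveolar coat protein caveolin-1, MT1G, a metallothionein, GAL, which encodes the neuropeptide galanin, CAB39L, H2BC26, a histone H2B gene, and TMEM135. TBC1D30 was the least precise of these (standard error 0.711, edgeR adjusted p = 0.00145), and GFP replicate 3 had 2.00 CPM of it, close to the hnRNPC libraries.

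The protein-coding genes made up 11458 of the genes tested, and 422 were called higher (3.68% of them) and 383 lower (3.34%). Long noncoding RNAs were 848 of the genes tested, with 57 called higher (6.72%) and 35 lower (4.13%).

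Gene lists chosen for this tissue and treatment were read against the whole table, in which the median log2 fold change was −0.03. IFN-stimulated genes were called higher in 8 of 47 tested members and lower in 0, and their median log2 fold change was 0.27. IFIT2, an antiviral RNA-binding protein, had 1.56, 1.33, and 2.37 CPM in CTRL cells and 6.96, 6.95, and 7.29 CPM in hnRNPC-targeted cells (log2 fold change 2.01, edgeR adjusted p = 9.62e-10). All hnRNPC libraries lay above all CTRL and GFP libraries (1.58 to 2.07 CPM). TRIM22, an antiviral ubiquitin ligase, had 2.70, 2.04, and 3.07 CPM in CTRL cells and 7.69, 7.99, and 7.31 CPM in hnRNPC-targeted cells (log2 fold change 1.56). These genes stayed at low absolute levels in targeted cells.

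IFI44L had 0.180, 0.191, and 0.109 CPM in CTRL cells, 0.776, 0.626, and 1.44 CPM in hnRNPC-targeted cells, and 0.666, 0.881, and 0.755 CPM in GFP cells. It was called against CTRL (log2 fold change 2.56, edgeR adjusted p = 1.16e-05) but not against GFP cells (0.30, edgeR adjusted p = 0.50). The GFP libraries lay wholly above the CTRL libraries. ISG20, an exonuclease, and IFIT1 likewise lost their calls against GFP cells, with log2 fold changes of 0.90 and 0.54, and IFIT1 also lost it without hnRNPC replicate 3 (0.97). OASL (log2 fold change 1.28) kept its call there, while its value without CTRL replicate 2 was 0.99. IFI44 (1.07) and IRF7 (1.07), the transcription factor that amplifies type I IFN, completed the 8, and neither was called against GFP cells (0.85 and 0.62). Against GFP cells 5 of the 47 were called higher and 0 lower, and without hnRNPC replicate 3 also 5.

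IFN-α raised 159 genes in CTRL cells of day 4 (1.21% of genes tested). Of these 159, 31 were called higher and 4 lower on day 5, beside 3.98% and 3.74% of all tested genes. Their median log2 fold change was 0.28, and 107 of the 159 had a value above 0, beside 6269 of all 13193 tested genes. Of the 525 genes called higher on day 5, 494 were not among the 159. Against GFP cells 25 of the 159 were called higher, beside 2.9% of all tested genes, and against both controls 20. IL4I1, a secreted amino acid oxidase, had 0.305 to 0.639 CPM in CTRL cells and 2.33 to 2.62 CPM in hnRNPC-targeted cells (log2 fold change 2.48 against CTRL and 2.16 against GFP cells). FOSB, an AP-1 subunit, and C3AR1, the receptor for complement C3a, lost their calls against GFP cells, with log2 fold changes of 0.12 and 0.90, where GFP replicate 3 had 9.12 and 4.51 CPM.

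Inflammatory cytokines, chemokines, and NF-κB feedback genes had the highest list median, 0.73, with 7 of 21 tested members called higher and 1 lower. The list held 36 genes, of which 31 matched the tables. CCL3, CCL4, CCL5, CCL23, and SOD2 did not match and have no value here. CCL2, the chemokine that recruits monocytes, had 0.242, 0.0779, and 0.184 CPM in CTRL cells and 1.56, 1.51, and 3.01 CPM in hnRNPC-targeted cells (log2 fold change 3.60, edgeR adjusted p = 1.95e-10). CD40, a costimulatory receptor of the TNF family, had 5.84, 6.44, and 6.18 CPM in CTRL cells and 22.5, 21.8, and 21.8 CPM in hnRNPC-targeted cells (log2 fold change 1.84, edgeR adjusted p = 4.89e-15). In both genes the hnRNPC libraries lay above all 6 control libraries. ICAM1, a leukocyte adhesion molecule, was called against both controls (1.72 and 1.57).

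The calls of CD83, IL1B, TNFAIP2, and NFKB2 depended more on the control. CD83, a dendritic cell maturation marker, had a log2 fold change of 1.77 against CTRL and 0.44 against GFP cells, IL1B 1.43 and 0.84, and TNFAIP2 1.03 and 0.85. TNFAIP2 was also not called without CTRL replicate 2 or hnRNPC replicate 1 (0.98 each). NFKB2 had 1.01 and 0.62. CXCL8, the chemokine interleukin-8, was the member called lower against CTRL (−1.02) but not against GFP cells (−0.71). Against GFP cells 3 of the 21 were called higher and 0 lower, with a median of 0.44.

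p53-pathway and growth-arrest genes were called higher in 6 of 28 tested members and lower in 1, with a median of 0.48. Beside CDKN1A, PHLDA3, an inhibitor of AKT signaling, had 1.78, 1.52, and 1.83 CPM in CTRL cells and 9.85, 6.86, and 7.84 CPM in hnRNPC-targeted cells (log2 fold change 2.26, edgeR adjusted p = 1.05e-13). BTG2, an antiproliferative regulator, had 10.9, 12.2, and 16.6 CPM in CTRL cells and 51.4, 43.3, and 51.0 CPM in hnRNPC-targeted cells (log2 fold change 1.88). FAS, the death receptor, had 4.09, 3.94, and 4.06 CPM in CTRL cells and 10.4, 11.8, and 11.8 CPM in hnRNPC-targeted cells (log2 fold change 1.49). The hnRNPC libraries of all 3 genes lay above every control library, although PHLDA3 and BTG2 were also raised in GFP replicate 3 (3.75 and 24.5 CPM). FDXR (1.17) and GADD45A (1.04) were the remaining members called higher, and CCNG2, an atypical cyclin, fell by 1.05 on the log2 scale. FDXR, GADD45A, and CCNG2 were not called against GFP cells (0.76, 0.87, and −0.77), where 4 of the 28 were called higher and 0 lower.

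Cholesterol synthesis and sterol response genes had the lowest list median, −0.77, with 0 of 24 tested members called higher and 7 lower. DHCR7, the last enzyme of the pathway, had 50.3, 55.3, and 70.9 CPM in CTRL cells and 20.2, 17.9, and 21.2 CPM in hnRNPC-targeted cells (log2 fold change −1.58, edgeR adjusted p = 6.52e-09). MSMO1, a sterol oxidase, had 108, 125, and 168 CPM in CTRL cells and 43.3, 50.4, and 50.9 CPM in hnRNPC-targeted cells (log2 fold change −1.47). Their groups did not overlap, with the highest control value in replicate 3 each time. HMGCS1, SQLE, and MVK fell by 1.08 to 1.29 on the log2 scale, and 23 of the 24 members had a negative log2 fold change. Among all 13193 tested genes, 6924 had a negative value. GFP cells, in which replicate 3 was also the highest, gave the same number of calls (7), with a median of −0.74. Without CTRL replicate 3 the calls numbered 4 and the median was −0.69, and HMGCS1 (−0.97) and MVK (−0.97) were no longer called.

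The integrated stress response targets moved both ways, and the direction depended on the control libraries. ATF3, NUPR1, and DDIT3, the stress-induced transcription regulators of this list, were called higher, and CHAC1, PSAT1, and SLC7A11 were called lower. The other 26 of the 32 tested members were not called, and the list median was −0.23. ATF3 had 1.53, 1.83, and 3.86 CPM in CTRL cells and 8.12, 7.71, and 8.70 CPM in hnRNPC-targeted cells (log2 fold change 1.76). DDIT3 had 18.6, 18.5, and 34.4 CPM in CTRL cells and 48.3, 48.5, and 47.4 CPM in hnRNPC-targeted cells (log2 fold change 1.01). Its call was lost without CTRL replicate 1 or 2 (0.86 each).

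CTRL replicate 3 had the highest value of each of the 3 genes called lower. PSAT1, an enzyme of serine synthesis, had 54.5, 53.3, and 134 CPM in CTRL cells and 37.6, 39.6, and 36.5 CPM in hnRNPC-targeted cells, and SLC7A11, the cystine transporter, had 25.0, 29.0, and 98.0 CPM and 16.8, 22.7, and 35.0 CPM. CHAC1 had 1.89, 1.92, and 1.88 CPM in hnRNPC-targeted cells, above CTRL replicates 1 and 2 and below replicate 3. Without CTRL replicate 3, the log2 fold change of PSAT1 changed from −1.09 to −0.51, that of SLC7A11 from −1.03 to −0.12, and that of CHAC1 from −1.31 to 1.16 (edgeR adjusted p = 0.00928), and 8 members of the list were then called higher and 0 lower. CHAC1 was also not called without any 1 of the hnRNPC libraries (−1.30 to −1.32). With replicate number as a block, CHAC1 (−0.92) and SLC7A11 (−0.93) were not called, and 3 members were called higher and 1 lower. Against GFP cells 4 members were called higher and 0 lower.

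Monocyte and macrophage maturation genes were called higher in 4 of 27 tested members and lower in 1 (median 0.30). ITGAM, the integrin chain CD11b, had 14.2, 13.8, and 16.7 CPM in CTRL cells and 37.3, 30.7, and 31.2 CPM in hnRNPC-targeted cells (log2 fold change 1.15, edgeR adjusted p = 7.38e-13). S100A8 and S100A9, the calprotectin subunits, rose by log2 fold changes of 1.30 and 1.34. CCR2, the receptor of CCL2, had 303, 313, and 298 CPM in CTRL cells and 144, 151, and 139 CPM in hnRNPC-targeted cells (log2 fold change −1.08). The ligand and its receptor thus lay on opposite sides, in groups that did not overlap. Against GFP cells, S100A9 (0.99) and CCR2 (−0.99) fell just short of the threshold.

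Among 17 tested immature myeloid genes, 1 was called higher and 1 lower (median −0.25). CEBPE, a factor of granulocyte maturation, rose by 1.10, and MYC, which drives growth, changed by −1.09, from 212, 211, and 219 CPM in CTRL cells to 104, 98.6, and 100.1 CPM in hnRNPC-targeted cells. Against GFP cells, the values were 0.94 and −0.997, so that neither was called. Lysosome and vacuolar ATPase genes had 2 of 40 members called higher and 0 lower (median −0.02). TFEB, the master regulator of lysosome genes, rose from 10.8, 9.62, and 8.90 CPM to 36.8, 27.6, and 25.7 CPM (log2 fold change 1.62), and SMPD1, acid sphingomyelinase, by 1.32. Both were called against GFP cells too.

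Calls were few among genes of the protein synthesis machinery, with shares near the 3.74% of all tested genes that were called lower. Of 64 tested mitochondrial translation genes, 0 were called higher and 3 lower (median −0.24), namely IARS2, MRPL22 (−1.47), and MRPL1 (−1.39). Of 36 translation initiation factors, 0 were called higher and 2 lower (median −0.24). EIF3D, a subunit of the mRNA-binding complex eIF3, had 388, 412, and 400.0 CPM in CTRL cells and 115, 115, and 110.4 CPM in hnRNPC-targeted cells (log2 fold change −1.82, edgeR adjusted p = 7.77e-27), and EIF2S3, a subunit of eIF2, had a log2 fold change of −1.16. Their groups were far apart, as were those of MCM3, a subunit of the replicative helicase, which was the 1 member called lower among 44 DNA replication genes (0 called higher, median −0.15). MCM3 had 558, 574, and 551 CPM in CTRL cells and 248, 245, and 241 CPM in hnRNPC-targeted cells (log2 fold change −1.20). Of 38 mitosis genes, 0 were called in either direction (median −0.22), and the smallest p belonged to BUB1B, a spindle checkpoint kinase (−0.97).

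Apart from HNRNPC, the lists of splicing factors, nonsense-mediated decay factors, and snoRNA host genes held no call. Of 40 hnRNP and SR splicing factors 0 were called (median −0.29), although HNRNPU had 1539 to 1551 CPM in CTRL cells and 1028 to 1086 CPM in hnRNPC-targeted cells (log2 fold change −0.55), and HNRNPK changed by −0.47. By the adjusted p alone, which 64.8% of all tested genes passed, 30 of the 40 splicing factors passed, 27 of them lower, while 35.2% of all tested genes passed as lower. This was not particular to splicing factors. Mitochondrial translation genes passed as lower in 35 of 64 and translation initiation factors in 23 of 36. DNA replication genes did so in 23 of 44 and mitosis genes in 22 of 38. Nonsense-mediated decay factors had 6 of 20 and snoRNA host genes 1 of 16. Of 20 nonsense-mediated decay factors 0 were called (median 0.01), with UPF3A at −0.71 and the exonuclease XRN1 at −0.75. Of 16 snoRNA host genes with transcripts subject to nonsense-mediated decay 0 were called (median −0.01), with SNHG16 at −0.71 and EPB41L4A-AS1 at 0.52. No call was made among 31 proteasome subunits (median −0.01), 15 mitochondrially encoded genes (median −0.00, unrounded −0.00455), 4 HLA class II genes (median 0.04) or 14 HLA class I presentation genes (median −0.19). In the last list CALR, the chaperone calreticulin, had 1626 to 1808 CPM in CTRL cells and 866 to 924 CPM in hnRNPC-targeted cells (log2 fold change −0.96), and ERAP1, a peptide-trimming protease, changed by −0.99. Against GFP cells CALR was called (−1.02).

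**Figure D2:**
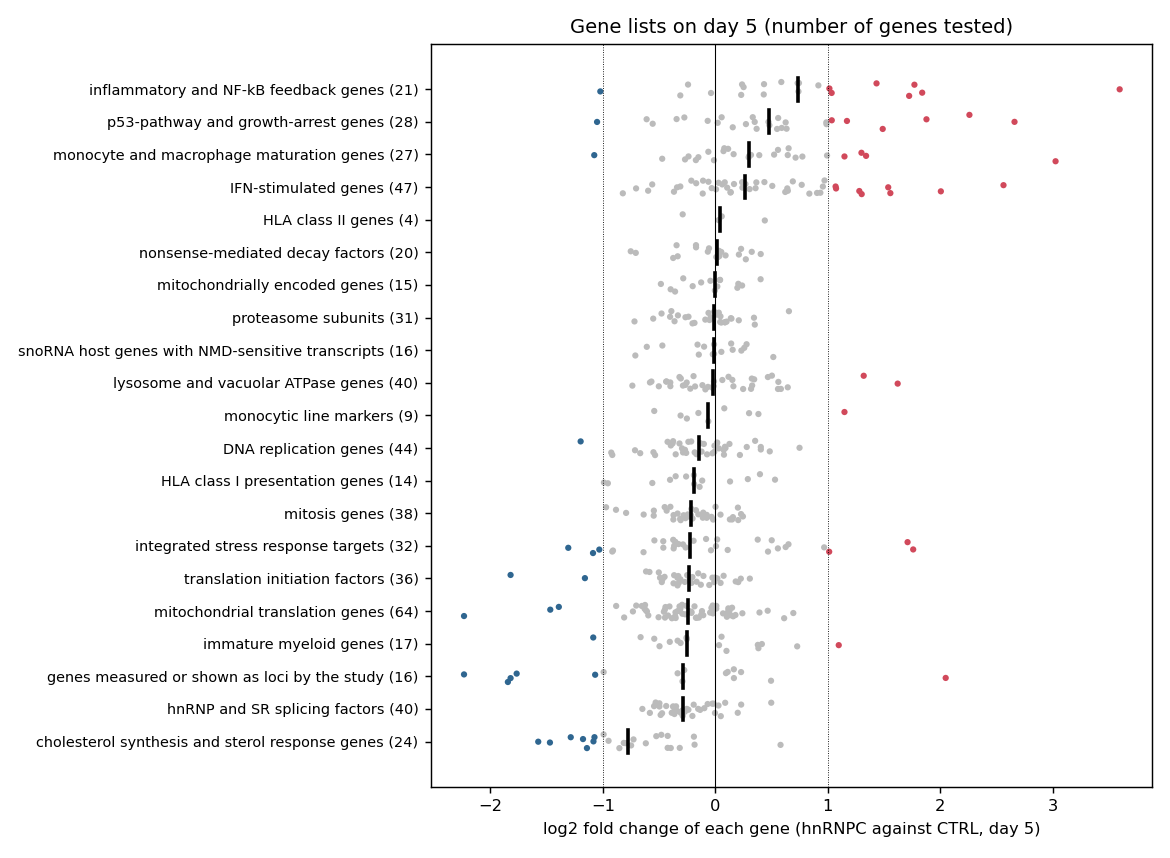
Log2 fold change of every tested gene of each list on day 5, hnRNPC-targeted against CTRL cells; colored points were called higher (red) or lower (blue), gray points were not called, vertical bars are medians, and dotted lines mark a log2 fold change of 1 in either direction. The medians run from −0.77 for cholesterol synthesis genes to 0.73 for inflammatory genes.

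The study chose 16 genes for qPCR or as displayed loci on these or related samples, so their direction is no independent evidence. Of these, 1 was called higher and 5 lower (median −0.28). RCN3, a calcium-binding protein of the endoplasmic reticulum, had 4.67, 3.13, and 4.67 CPM in CTRL cells and 19.6, 14.5, and 17.5 CPM in hnRNPC-targeted cells (log2 fold change 2.05). NUCKS1, a chromatin protein, had 1379, 1566, and 1577 CPM and 376, 431, and 452 CPM (log2 fold change −1.85). NKRF, a repressor of NF-κB target genes, had a log2 fold change of −1.07 against CTRL and −0.99 against GFP cells. BRD8 (0.49), MYB (−0.34), RBM17 (0.17), PNPLA3 (−0.28), MIGA1 (0.16), and TMEM116 (0.09) stayed well within the threshold, whereas OSTC (−0.99) lay at it.

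Introns called higher mostly lay in genes without a call, which was also so for introns that were not called. Of the 873 introns called higher, 809 lay inside exactly 1 tested gene (703 genes). The gene was called higher for 85 of these introns, was not called for 703, and was called lower for 21, so that 724 rose without a call of their gene in the same direction. The gene was thus not called for 86.9% of them, beside 97.6% of the 19067 introns without a call inside 1 tested gene. For 97 of those 19067 the gene was called higher. For 504 of the 809 the intron exceeded its gene by at least 1 on the log2 scale. Most of the 703 genes, 617, had a single such intron. Of the introns called lower, 457 lay inside 304 genes, and the gene was called lower for 184 of them and higher for 0. Taken per intron, the median log2 fold change of the gene was −0.87, and 33 of the 457 introns fell below their gene by at least 1. Introns called lower thus went more often with their genes. Leaving out CTRL replicate 1 or 2 moved the split of calls, to 1078 higher and 373 lower and to 742 higher and 670 lower.

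The intron with the largest increase lay in ACTR3, which encodes a subunit of the actin-nucleating Arp2/3 complex (chr2:114685033-114688877). It had 3.13, 2.33, and 2.51 CPM in CTRL cells and 44.1, 43.5, and 43.8 CPM in hnRNPC-targeted cells, on the library size of the genes. The groups were far apart and tight (log2 fold change 4.05, standard error 0.277, edgeR adjusted p = 1.66e-14), while ACTR3 itself was called lower (−1.30). An intron of GMPS, an enzyme of guanine nucleotide synthesis, had 1.10, 1.23, and 1.27 CPM in CTRL cells and 16.9, 16.5, and 16.1 CPM in hnRNPC-targeted cells (log2 fold change 3.78), and GMPS was called lower as well (−1.11). SRP68, a subunit of the signal recognition particle, had an intron with 0.383, 0.404, and 0.503 CPM in CTRL cells and 6.49, 5.72, and 5.29 CPM in hnRNPC-targeted cells (log2 fold change 3.76), with the gene at 0.22. In the zinc finger gene VEZF1, the intron had 0.406, 0.538, and 0.728 CPM in CTRL cells and 6.94, 7.31, and 6.27 CPM in hnRNPC-targeted cells (log2 fold change 3.61), with the gene at 0.40. The introns therefore rose in genes that were lower as well as in genes that were not called.

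Introns of SNRNP40, a protein of the spliceosome (3.59), OSBPL8 (3.56), BRD8 (3.55), MORC3 (3.55), ZNF141 (3.54), and NCOA3 (3.46) followed. Of these host genes only ZNF141 was itself called, and it was higher (1.52). All 10 introns were called higher on days 3 and 4 as well, and 1 of them, in VEZF1, rose further from day 3 to day 5 by more than the threshold (difference 1.00, edgeR adjusted p = 0.021).

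hnRNPC binds runs of uridine, which appear as runs of T on the coding strand, the strand that reads like the RNA. The sequences below show the longest such run in the 4 introns with the largest increases, in capitals within 80 bases of GRCh37 in the direction of transcription; they were chosen after the values were seen.
ACTR3 (chr2:114686247-114686326, forward): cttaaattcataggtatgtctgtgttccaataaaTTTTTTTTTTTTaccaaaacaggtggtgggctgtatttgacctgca
GMPS (chr3:155622050-155622129, forward): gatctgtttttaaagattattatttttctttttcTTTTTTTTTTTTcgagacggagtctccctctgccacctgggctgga
SRP68 (chr17:74042517-74042596, reverse): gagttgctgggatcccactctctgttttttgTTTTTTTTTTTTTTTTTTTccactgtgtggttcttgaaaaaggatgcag
VEZF1 (chr17:56057303-56057382, reverse): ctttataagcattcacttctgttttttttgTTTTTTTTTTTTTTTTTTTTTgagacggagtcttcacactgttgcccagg
The runs were 12, 12, 19, and 21 bases long.

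A run of at least 9 T on the coding strand was present in 77.6% of the introns called higher, 65.4% of those called lower, and 66.4% of those not called. For runs of A on the same strand, counted as a control for base composition, the shares were 54.8%, 61.1%, and 59.7%. Longer introns hold more runs, so the shares were also taken within classes of length. Among introns of 1000 to 3000 bases, 7.05% of the 2086 with a T run and 2.52% of the 2739 without one were called higher. From 3000 to 10000 bases the shares were 4.17% of 5426 and 1.93% of 1396, whereas up to 1000 bases they were 3.17% of 252 and 3.13% of 2493. From 10000 to 30000 bases, where 119 introns lacked a T run, the shares were 5.01% and 5.88%. The difference was thus present in the middle classes of length. These are counts without a test, and a run of T is a match of letters, not a measured binding site.

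**Figure D3:**
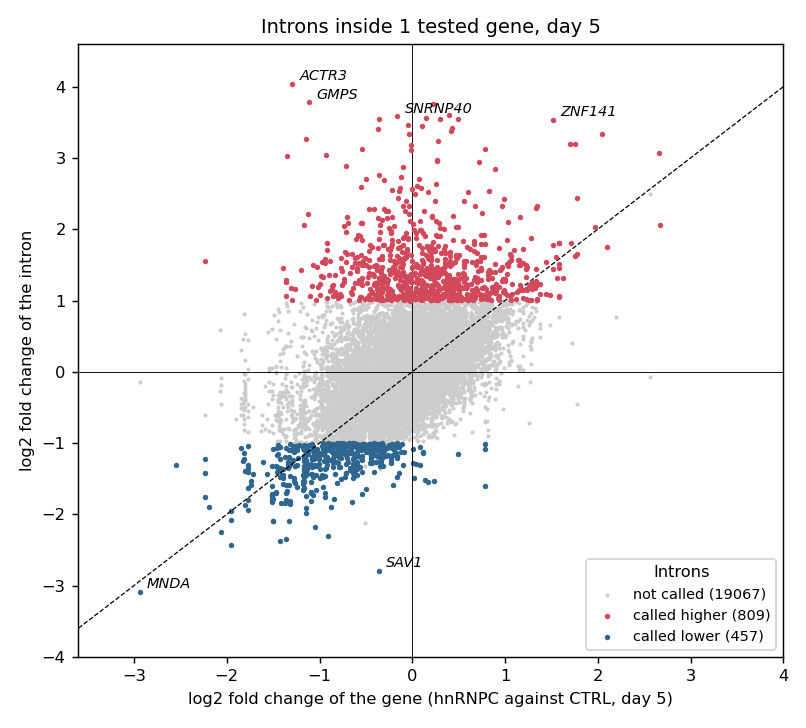
Log2 fold change of each tested intron that lies inside 1 tested gene (vertical axis) against that of its gene (horizontal axis), hnRNPC-targeted against CTRL cells on day 5; red introns were called higher (809), blue lower (457), gray were not called, and the dashed line marks equal change. Red points spread above the line on both sides of 0 on the gene axis, as for ACTR3 (intron 4.05, gene −1.30), and blue points lie mostly left of 0.

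The introns with the largest decreases followed their genes in 4 of 5 named cases. An intron of MNDA had 3.95, 3.35, and 3.31 CPM in CTRL cells and 0.433, 0.333, and 0.477 CPM in hnRNPC-targeted cells (log2 fold change −3.09), close to the gene (−2.94). SERPINB2, a plasminogen activator inhibitor, had −2.43 in its intron and −1.96 in the gene, RNF175 had −2.37 and −1.43, and ADAT2 had −2.35 and −1.36. The intron of SAV1, a scaffold of Hippo signaling, was the exception, with 21.3, 47.5, and 33.2 CPM in CTRL cells and 4.46, 4.97, and 5.25 CPM in hnRNPC-targeted cells (log2 fold change −2.80, standard error 0.822) and the gene at −0.36. Its control libraries varied widely, and on day 3 its log2 fold change was 1.55 and was not called.

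The level of an ECR is the count of all its reads, edited or not. Of the ECRs tested, 4.98% were called higher and 4.31% lower. Of the 1470 inside introns, 81 were higher (5.51%) and 50 lower (3.4%), and of the 243 between genes 22 (9.05%) and 17 (7.0%). Of the 563 in untranslated regions, 11 were higher (1.95%) and 33 lower (5.86%). Of 170 in noncoding exons 11 were higher (6.47%) and 9 lower (5.29%), and of 82 in coding sequence 1 was higher and 0 lower. The shares of intronic ECRs thus lay near those of all ECRs. Intergenic ECRs were called more often in both directions. Those in untranslated regions were called higher less often and lower more often. Among the 126 ECRs called higher, 54 (42.9%) overlapped an intron called higher, and among the 109 called lower 30 (27.5%) overlapped an intron called lower. An ECR inside an intron shares reads with it, so part of this overlap is built in. The share among ECRs that were not called was not counted, so no excess can be read from these shares. Introns that overlapped an ECR made up 14.6% of those called higher and 7.8% of those not called. The shares called higher depended on intron length. Up to 1000 bases they were 4.44% of 90 introns with an ECR and 3.09% of 2655 without one, and from 1000 to 3000 bases 4.36% of 459 and 4.49% of 4366, so that no excess was seen there. From 3000 to 10000 bases they were 6.26% of 783 and 3.38% of 6039, from 10000 to 30000 bases 16.2% of 229 and 4.29% of 3402, and above 30000 bases 9.64% of 83 and 2.83% of 2227. For 97 ECRs called higher that lay in 1 tested gene of the same strand, that gene was called higher in 17 cases, not called in 80, and lower in 0. For the 1974 such ECRs that were not called, the gene was called higher in 9 cases, not called in 1924, and lower in 41. A call of the gene upward was thus more frequent for ECRs called higher.

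The ECR with the largest increase lay in an intron of PPP6C, a catalytic subunit of protein phosphatase 6 (chr9:127936079-127938109). It had 0.328, 0.198, and 0.184 CPM in CTRL cells and 6.64, 6.43, and 6.06 CPM in hnRNPC-targeted cells (log2 fold change 4.76, standard error 0.328, edgeR adjusted p = 5.58e-15). The hnRNPC libraries were close to each other and far above the controls. An intronic ECR of BRD8, a subunit of the NuA4 acetyltransferase complex, had 1.26, 0.701, and 1.32 CPM in CTRL cells and 15.8, 14.8, and 17.3 CPM in hnRNPC-targeted cells (log2 fold change 3.87). An intronic ECR of RCN3 had 0.641, 0.319, and 0.442 CPM in CTRL cells and 6.25, 4.81, and 5.66 CPM in hnRNPC-targeted cells (log2 fold change 3.58). BRD8 mRNA was not called, whereas RCN3 mRNA was called higher.

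Intronic ECRs of TMEM116 (2.72), ZNF431 (2.66), MARS1 (2.60), and CASP8AP2 (2.42), an ECR in an untranslated region of GPAA1 (2.52), and an intergenic ECR at chr16:18781831-18788703 (2.72) were among the other ECRs with large increases. The largest decrease was in an ECR of an untranslated region of GMPS (chr3:155658901-155661965), with 20.9, 22.6, and 23.1 CPM in CTRL cells and 4.09, 4.47, and 5.26 CPM in hnRNPC-targeted cells (log2 fold change −2.27, edgeR adjusted p = 4.10e-19). GMPS thus had an intron far above and an ECR far below control levels. An ECR in ENSG00000254343, 1 in an intron at chr15:32862251-32866176, 1 between genes at chr4:181164729-181166779, and 1 in MRPL42 fell by 2.04 to 2.21 on the log2 scale. All 15 ECRs chosen for their size of change were also called against GFP cells, where 5.81% of all tested ECRs were called higher and 3.09% lower.

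Over all ECRs with enough reads, editing was slightly higher in hnRNPC-targeted cells. All deposited sites of an ECR with a value in all 48 libraries were counted, also those that did not pass the study's filter on editing sites. The share of edited reads was 4.37%, 4.74%, and 4.61% in CTRL cells and 5.55%, 5.27%, and 4.96% in hnRNPC-targeted cells, a difference of 0.681 percentage points between means of 4.58% ± 0.188 and 5.26% ± 0.294 (SD, n = 3 each). Each hnRNPC library lay above each CTRL and GFP library (4.36% to 4.58%), and the exact two-sided permutation test gave p = 0.1, the smallest that 3 against 3 libraries allow. The level of editing depended on the sites counted. With the study's filter on sites, an alternative chosen after seeing the data, 794 ECRs remained. Edited reads were then 14.3%, 14.8%, and 14.6% in CTRL cells and 16.6%, 15.8%, and 15.0% in hnRNPC-targeted cells. Per ECR, over all sites, limma called 71 higher (2.74%) and 4 lower (0.155%) of 2587 ECRs tested. These calls were unstable, with 14 to 31 calls when 1 library was left out and 133 against GFP cells. An intronic ECR of GPBP1L1 had 5.30%, 4.80%, and 5.78% edited reads in CTRL cells and 10.0%, 10.5%, and 10.1% in hnRNPC-targeted cells (difference 1.03 on the log2 odds scale, limma adjusted p = 1.45e-05), at a level of the ECR that was not called. CHROMR, a long noncoding RNA, had 2.96%, 3.29%, and 3.38% in CTRL cells and 0%, 0.328%, and 1.04% in hnRNPC-targeted cells (limma adjusted p = 0.000473), and the ECR itself was called lower (log2 fold change −1.45). Of the 104 ECRs called higher in level that were tested for editing, 5 were called higher and 1 lower in editing.

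**Figure D4:**
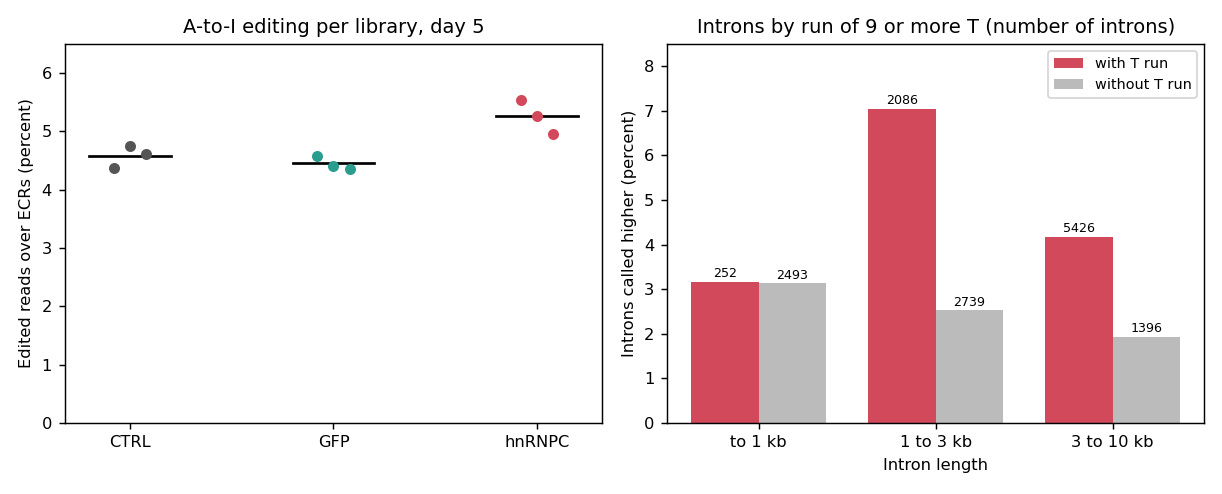
Left, percent of edited reads over all tested ECRs in each library of day 5, with the mean of each group as a bar; the hnRNPC libraries (4.96% to 5.55%) lie above the CTRL and GFP libraries. Right, percent of introns called higher by intron length, for introns with and without a run of 9 or more T, with the number of introns above each bar; 7.05% and 2.52% were called higher at 1 to 3 kb.

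The response of day 5 was compared with that of day 3, whose 3 hnRNPC and 3 CTRL libraries were separate. Of the 525 genes called higher on day 5, 52 had been called higher on day 3, when 0.553% of all tested genes were, and 170 on day 4 (1.59%), and 353 were called on day 5 only. Of the 493 called lower, 46 had been called lower on day 3 (0.485%) and 142 on day 4 (1.63%), and 349 were called on day 5 only. The introns called higher differed from this. Of the 873, 409 had been called on day 3 (2.49%) and 569 on day 4 (3.57%), and 297 were called on day 5 only. Of the 513 introns called lower, 20 had been called on day 3 (0.138%) and 82 on day 4 (0.505%), and 430 were called on day 5 only. Among the 126 ECRs called higher, 83 had been called on day 3 (4.79%), 99 on day 4 (5.62%), and 25 on day 5 only, and of the 109 called lower these numbers were 9 (0.435%), 27 (1.27%), and 82.

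The difference between the responses of days 5 and 3 was itself tested. It was called higher for 471 genes (3.57%) and lower for 249 (1.89%), for 278 (1.28%) and 352 introns (1.61%), and for 18 (0.712%) and 44 ECRs (1.74%). The median over all introns shifted by −0.22 and that over all ECRs by −0.21 between the days, and the median over all genes by −0.01. Against the GFP cells of each day, the counts were 217 and 121 genes and 49 and 204 introns. The balance of the introns turned with single libraries, to 359 higher and 221 lower without CTRL replicate 1 and to 193 and 488 without CTRL replicate 2. Without hnRNPC replicate 1 they numbered 182 and 229. The median log2 fold change of the genes called higher on day 5 rose from 0.26 (day 3) through 0.72 (day 4) to 1.29 (day 5), whereas that of the introns was 0.96, 1.23, and 1.31, and that of the ECRs 1.13, 1.43, and 1.35. These genes and introns were chosen by their value on day 5, so the value of that day was raised by the choice.

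ITGAM had a log2 fold change of −0.29 on day 3 and 1.15 on day 5 (edgeR adjusted p of the difference = 2.71e-10). TFEB went from −0.21 to 1.62, PHLDA3 from 0.01 to 2.26, IL21R from 0.70 to 3.13, and ICAM1 from −0.31 to 1.72, all with a called difference. FAS (1.57 and 1.49), TLCD3B (1.91 and 2.67), S100A8 (1.79 and 1.30), and PRMT3 (−2.04 and −2.54) were called on both days without a called difference between them. Cholesterol synthesis genes had a median of −0.19 on day 3 and −0.57 on day 4, and inflammatory genes 0.00 (unrounded 0.00335) and 0.19.

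**Figure D5:**
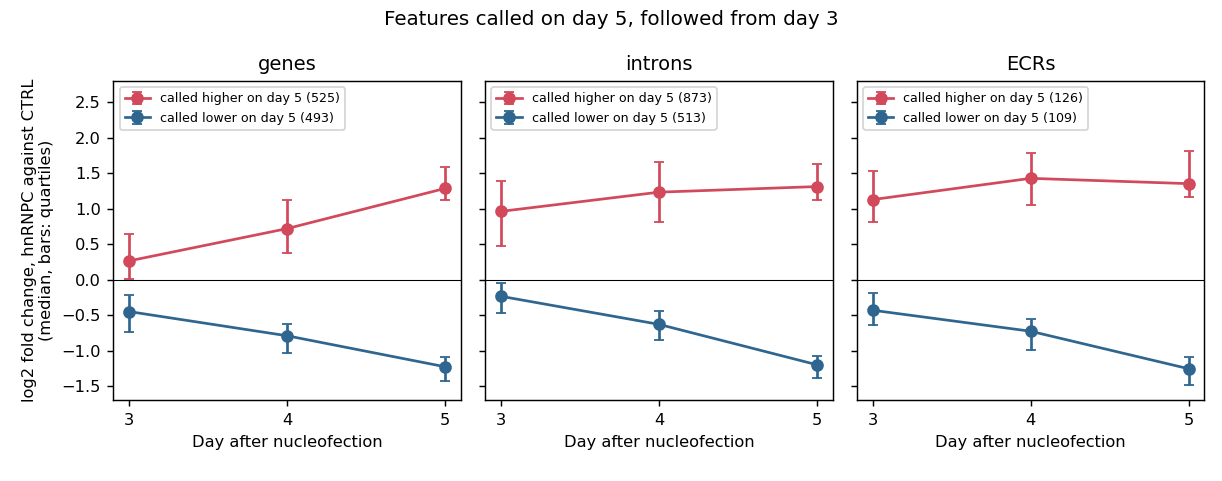
Median log2 fold change (points) and quartiles (bars) on days 3, 4, and 5 of the genes, introns, and ECRs called higher (red) or lower (blue) on day 5, hnRNPC-targeted against CTRL cells of the same day. Genes called higher climb from 0.26 to 1.29, while introns and ECRs called higher start at 0.96 and 1.13.

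A second RNA-seq study of the series used a wild-type clone and another gRNA, hnRNPC.1, with total RNA of day 4 from 2 hnRNPC and 2 CTRL libraries. Of the 525 genes called higher on day 5, 451 were tested there, and 27 were called higher and 0 lower (0.278% and 0.454% of all genes tested in that study). Of the 493 called lower, 469 were tested there, and 0 were called higher and 17 lower. The log2 fold change had the sign of day 5 for 399 of the 451 and for 425 of the 469. Of the 11776 genes tested there that were not called on day 5, 6592 had a positive and 5184 a negative value. IL21R (1.08), LOXL4 (1.25), SYTL2 (1.31), TLCD3B (1.64), PCDH12 (1.17), OASL (1.10), S100A8 (1.01), and RCN3 (1.39) were called higher, and PRMT3 (−1.08), TMEM135 (−1.03), and DHCR7 (−1.12) lower. MNDA (−0.74), BTG2 (−0.10), and ICAM1 (−0.26) were not called. Clone, gRNA, and day differed together, so their parts in these differences cannot be told apart, and the number of calls in that study ranged from 20 to 428 when 1 of its libraries was left out.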

How the data were processed

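The authors aligned reads of stranded, ribosomal RNA-depleted libraries to GRCh37 (STAR 2.5.4a, featureCounts, and bedtools are named in the submitters' processing notes) and deposited raw counts per gene, intron, ECR, and editing site. Count tables of study 1 were fitted for all 48 libraries in 1 model with edgeR 4.0.16 (R 4.3.3; quasi-likelihood test, gene totals with TMM factors for every table, Benjamini-Hochberg adjustment), after a minimum average log2 CPM of 0.5 for genes, 1 for introns, and 4.5 for ECRs. CPM are counts scaled by those totals. Editing was tested with limma 3.58.1 on log2((edited + 0.5)/(unedited + 0.5)) for ECRs with at least 50 reads in every library. Alternatives were DESeq2 1.42.0, limma-voom, RLE factors, no filter, the 6 libraries alone, other controls, a replicate block, and each library left out.

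The comparison, members, and gene lists were chosen with earlier results of these data known. Genes were named by rule: the 10 protein-coding genes with the largest called change in each direction, of those with a mean of at least 5 CPM in the higher group and groups that did not overlap; HNRNPC; every gene the study measured by qPCR or showed as a locus; of each other list up to 6 called members by size, or, with none called, the 2 members with the lowest p; and up to 8 called IFN-α-induced genes. Introns inside exactly 1 tested gene and ECRs were named by the same rule (10 higher, 5 lower, at least 1 CPM, at most 1 intron a gene). Other genes named in the text were chosen after their values were seen. Of 656 list genes, 647 matched the tables. Same-numbered hnRNPC and CTRL libraries of day 5, which the study describes as independent experiments, deviated together (correlations of 0.395, 0.328, and 0.409). On day 3 these correlations were 0.487, −0.160, and 0.336. The main fits and the permutation test did not pair libraries. A pairing by number entered only the alternative fits with a replicate block. No pair of libraries agreed within counting noise. On simulated counts, 200 of 200 changed genes, 199 of 200 introns, and 200 of 200 ECRs were recovered with 0 false calls. Of ECRs with changed editing in such counts, 169 of 200 were recovered with 6 false calls. These values hold for the simulated counts only. Recovery in the measured libraries, some of which stood apart in particular genes, was not tested. Some items that the rule selects are not reported here. Sequences came from GRCh37 and the study's list of gRNAs.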

Additional observations from a re-analysis of the deposited data

Results flagged for a closer look

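The response to hnRNPC targeting on day 5 differed from that on day 3 by an interaction term in edgeR for 471 genes upward and 249 downward, for 278 introns upward and 352 downward, and for 18 ECRs upward and 44 downward. The values that follow are the log2 fold change of day 5 minus that of day 3. Genes with a higher response on day 5 were CYP1B1 (2.99), ANKDD1A (1.37), IL21R (2.44), LOXL4 (2.01), IFITM10 (1.86), F2RL3 (2.28), SYTL2 (1.35), CDKN1A (1.44), PCDH12 (1.74), IFI44L (3.10), IFIT2 (1.06), ISG20 (1.21), PHLDA3 (2.25), BTG2 (1.21), CEBPE (1.06), ITGAM (1.43), CCL2 (3.22), CD40 (1.56), CD83 (1.14), ICAM1 (2.03), TNFAIP2 (1.00), TFEB (1.83), SMPD1 (1.02), ZNF366 (2.71), and IL4I1 (2.32). Those with a lower response were MNDA (−1.50), TBC1D30 (−2.39), CAV1 (−1.40), IARS2 (−1.16), MT1G (−1.35), GAL (−1.46), PSAT1 (−1.05), SLC7A11 (−1.21), DHCR7 (−1.03), MSMO1 (−1.36), HMGCS1 (−1.17), and NUCKS1 (−1.03). CTRL replicate 3 of day 5 was high in PSAT1 and SLC7A11, and without it their day 5 log2 fold changes were −0.51 and −0.12, against −1.09 and −1.03 with it. Named introns with a different response lay in VEZF1 (1.00), MNDA (−2.08), SAV1 (−4.35), SERPINB2 (−2.01), and RNF175 (−1.52). The named ECRs were those in ZNF431 (1.39), ENSG00000254343 (−2.13), and MRPL42 (−1.40), and those at chr15:32862251-32866176 (−1.26) and chr4:181164729-181166779 (−1.39). These features were named for their change on day 5 and not for the difference between days.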

How the results depend on the processing

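Calls of the day 5 comparison were recomputed with 1 choice changed at a time, except where stated. Without a filter on low counts the called genes numbered 3087 (63.6% of them higher, against 51.6%), the introns 8467, and the genes of the second study 411. Filtering ECRs on gene totals left 586 ECRs and 22 calls, 3 of them higher, by the construction of that filter. With GFP cells as control, the called difference between days 5 and 3 held 338 genes and 253 introns (19.4% higher, against 44.1%), the share of ECR calls that were higher was 65.3% against 53.6%, and editing calls numbered 133. A quasi-binomial model on the 6 libraries, which changed both the model and the libraries fitted, gave 13 editing calls, and the study's filter on editing sites, an alternative chosen after seeing the data, gave 26. CHAC1 reversed to 0.49 against GFP cells and to 1.16 without CTRL replicate 3, and leaving out 1 library gave −1.81 to 1.16. The cause of these changes was not tested.

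With 1 library left out, calls ranged from 920 to 1085 genes, 1307 to 1516 introns, and 226 to 251 ECRs. Introns called higher without their gene ranged from 617 to 895, and the difference between days 5 and 3 from 537 to 823 genes, 411 to 714 introns (411 without hnRNPC replicate 1), and 46 to 73 ECRs. Pooled editing ranged from 0.537 to 0.831 percentage points, editing calls from 14 to 31, and calls of the second study from 20 (without its hnRNPC replicate 2) to 428 (without its CTRL replicate 1). The share of intron calls that were higher was 74.3% without CTRL replicate 1 and 52.5% without CTRL replicate 2, against 63.0%.

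Replicate number as a block gave 1027 genes, 1370 introns, 239 ECRs, 90 editing calls, and 116 genes in the second study, and of the named features it changed the calls of CHAC1 and SLC7A11 and no other. In the second study, same-numbered libraries had a correlation of −0.207, and a block with the numbers crossed, also chosen after seeing the data, gave 112 calls against 100 in the unblocked fit. Of 100 genes chosen by the rule, DESeq2, RLE factors, and no filter left all 100 on their side of the threshold, limma-voom 97, and the 6 libraries alone 98. All 15 introns and 15 ECRs chosen for their size of change stayed on their side in these alternatives, against GFP cells, and when each of the 6 libraries was left out. Of the 100 genes, 17 lost their call against GFP cells in the same direction, and CHAC1 lost it with a change of sign.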

Other observations

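Processed pseudogenes were called lower more often than other classes, a pattern noticed after the values were seen and reported without a test. Of 265 tested processed pseudogenes, 50 were called lower (18.9%) and 11 higher, against 3.34% of protein-coding genes called lower. Among 109 pseudogenes of ribosomal proteins and EEF1A1, 31 were called lower and 2 higher. Their median log2 fold change went from 0.63 (day 3) through −0.43 (day 4) to −0.86 (day 5), and stood at 0.09 in the second study. Their summed level on day 5 was 782, 786, and 1043 CPM in CTRL cells, 601, 774, and 863 CPM in GFP cells, and 476, 540.1, and 589 CPM in hnRNPC-targeted cells. Of 82 cytosolic ribosomal protein genes and EEF1A1, 0 were called by edgeR, with a median of −0.37. The paper counted only uniquely mapping reads, so reads that fit several of these near-identical copies were left out. The values rest on the remaining reads and are uncertain.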
